A study of Mus musculus with 4 samples.

Results

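The genes described here are the ligands and receptors of the 4 classical axon guidance systems, followed across the cell types of mouse inner ear organoids. They were chosen by symbol alone: Dcc and every gene named as an Eph receptor, ephrin, semaphorin, plexin, neuropilin, Robo, Slit, netrin or Unc5. This gave 69 of the 32289 genes in the tables: 20 semaphorins, 9 plexins, 2 neuropilins, 9 EphA and 5 EphB receptors, 5 ephrin-A and 3 ephrin-B ligands, 4 netrins, 5 netrin receptors, 3 Slits and 4 Robo receptors. The organoids were grown from mouse embryonic stem cells in which nuclear GFP reports Atoh1, a regulator that commits cells to the hair cell fate (line Atoh1-nGFP-ESC). Dissociated cells passed a GFP sort before 10x Genomics single-cell RNA libraries were prepared. The groups were day 16, day 20, and day 21 divided by GFP signal into GFP high and GFP low, and each group was 1 library. A gate is named only for day 21. The labels call all cells otic lineage and speak of single nuclei, whereas the protocol describes sorted cells. All groups come from 1 stem cell line, and no label separates cultures. Since a group is 1 library, a difference between libraries rests on no replicate, p-values are not given, and intervals cover counting error only.

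Axon guidance proteins steer growing axons and migrating cells, and they also act at borders between tissues and in blood vessels. Netrins are secreted and are read by Dcc, which mediates attraction, and by Unc5 receptors, which mediate repulsion. Slits are secreted repellents read by Robo receptors. Semaphorins, some secreted and some bound to the membrane, are read by plexins, and most secreted semaphorins of class 3 need a neuropilin as the partner of the plexin. Ephrins and Eph receptors both sit in the membrane and act where cells touch. In the inner ear they are known for the targeting of sensory neurons to hair cells, for the borders of sensory patches and for the patterning of the surrounding mesenchyme.

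After filtering, the libraries held 3376 (day 16), 4348 (day 20), 3435 (GFP high) and 3686 cells (GFP low), with median UMIs per cell between 8844.5 (day 20) and 28868 (GFP high). UMIs of the 69 genes were 0.119 to 0.159% of all UMIs in a library. Between 1 and 8 kept cell barcodes were shared by any pair of libraries. Cells were clustered without the 69 genes, and clusters were named from marker lists, so that no guidance gene shaped a class. In the same order hair-cell-like cells numbered 139, 123, 1809 and 738, neuron-like cells 1152, 766, 104 and 828, and mesenchyme-like cells 944, 2043, 46 and 99. The supporting-cell-like cluster, cells like those that surround hair cells, held 282 cells in GFP high and 656 in GFP low, and fewer than 50 in the other libraries. This cluster raised 14 of 17 supporting cell markers, and also 5 of 6 cartilage markers and 4 of 8 markers of glia or neural crest. All 22 hair cell markers reached 10 CPM in the hair-cell-like cells of each library, and all 14 neuron markers did in the neuron-like cells. The same lists named the clusters, so this is not separate evidence for the names. At day 16, 10 of the 14 neuron markers also reached 10 CPM in hair-cell-like cells, and 5 of the 22 hair cell markers did in neuron-like cells. The label otic lineage does not cover all cells, since mesenchyme-like clusters held 3132 cells and Merkel-cell-like clusters 1472. Levels are CPM, the summed UMI counts of a gene in a class scaled to a common total of UMIs, and values of different genes are not compared. A gene was called higher or lower between groups of cells when it reached 10 CPM in either group and its ratio was 2 or more with a 95% interval that excludes 1.

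A total of 61 of the 69 genes reached 10 CPM in at least 1 of the 4 classes of some library, and 66 did in at least 1 cluster. The 3 that did not reach it in any cluster were Robo4, a Robo of blood vessels, Epha6 and Sema3g, and Plxnb3, Slit1, Epha8, Epha2 and Sema4f did so only in clusters. Of the genes at 10 CPM in a class of 50 or more cells at day 16, 26 of 56 had their highest level in neuron-like cells, 24 in mesenchyme-like cells and 6 in hair-cell-like cells. In the GFP low library, the only one with 50 cells of each class, the 54 genes at 10 CPM were highest in neuron-like cells for 21, in mesenchyme-like cells for 12, in hair-cell-like cells for 11 and in supporting-cell-like cells for 10. The same split over all genes was not counted, so whether it is particular to guidance genes was not tested. In the heat map the netrin receptor Dcc stands out in neuron clusters, and the ligand Ntn1 in mesenchyme clusters. The netrin receptor Unc5c stands out in some neuron clusters, and not in the Otp-led one.

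Each class was also set against all other cells of the library that holds most of it. Hair-cell-like cells of GFP high were higher in 3 of 42 measured guidance genes (background 7.36%), Sema6d, Sema7a and Sema3e, and lower in 20 (background 13.3%). The other cells there include an unnamed cluster led by Ocm (438 cells, 22 of 22 hair cell markers raised). They also include another led by Otog (153 cells, 21 of 22 raised). A gene that these clusters share with hair-cell-like cells can fall short of the rule. Supporting-cell-like cells of GFP low were higher in 7 of 47 (background 8.65%): Sema3b, Sema3f, Sema4b, Ephb1, Efna1, Efna4 and Robo1. They were lower in 20 (background 17.1%), among them Dcc, Robo3, Nrp1, Nrp2 and Sema3a. Neuron-like cells of day 16 were higher in 20 of 49 (background 14.9%) and mesenchyme-like cells of day 20 in 18 of 49 (background 12.1%). Receptors and ligands were among both: Dcc, Robo3, Unc5c, Sema6b and Efnb3 among the neuron-like genes, and Ntn1, Slit3, Sema3d, Nrp1 and Ephb4 among the mesenchyme-like genes.

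**Figure D1:**
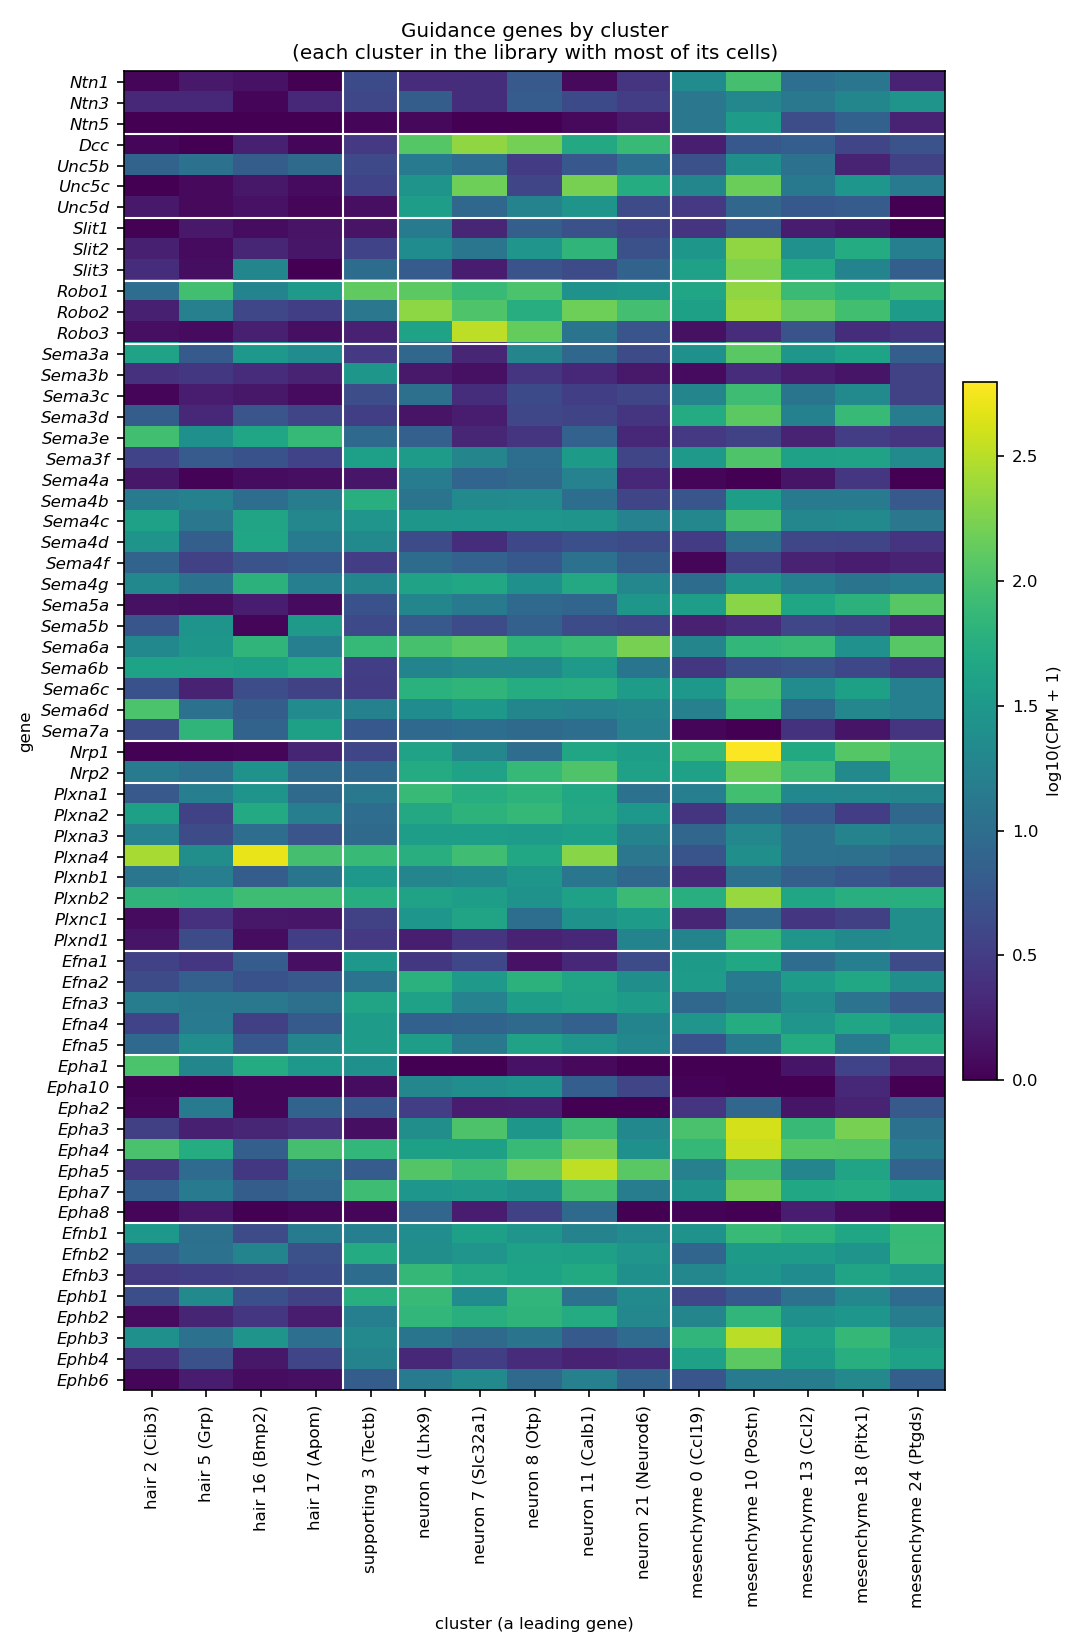
Heat map of 63 guidance genes (rows, grouped by family; those at 20 CPM or more in some cluster) in 15 clusters (columns, named by class, number and 1 leading gene), each shown in the library that holds most of its cells. Colour is log10(CPM + 1). Dcc is bright in neuron clusters, Robo3 and Unc5c in some of them, and Epha1 and Sema3e in hair cell clusters. Nearly all genes are brighter in the shallow Postn-led mesenchyme cluster than in the other mesenchyme.

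The results in hair cells turn on 2 pairs of genes that differed in opposite directions between hair cell clusters of GFP high, so their promoters are shown first. Epha1, an Eph receptor kinase, and Sema3e, a secreted semaphorin, were high in the Cib3-led cluster, while Sema7a and Sema5b, semaphorins bound to the membrane, were high in the Grp-led cluster. Each sequence runs 5′ to 3′ on the gene's strand from 250 bases before to 50 bases after the start given by RefSeq (GRCm38.p6): Epha1 at chr6:42373219-42373518 (minus strand), Sema3e at chr5:14025026-14025325 (plus), Sema7a at chr9:57939862-57940161 (plus) and Sema5b at chr16:35541112-35541411 (plus).
Epha1: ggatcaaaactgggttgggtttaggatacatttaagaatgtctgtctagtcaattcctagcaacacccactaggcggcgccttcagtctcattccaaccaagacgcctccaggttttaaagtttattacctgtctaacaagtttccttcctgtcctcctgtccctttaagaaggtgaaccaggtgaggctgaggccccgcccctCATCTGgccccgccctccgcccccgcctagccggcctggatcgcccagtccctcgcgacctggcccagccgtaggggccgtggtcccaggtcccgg
Sema3e: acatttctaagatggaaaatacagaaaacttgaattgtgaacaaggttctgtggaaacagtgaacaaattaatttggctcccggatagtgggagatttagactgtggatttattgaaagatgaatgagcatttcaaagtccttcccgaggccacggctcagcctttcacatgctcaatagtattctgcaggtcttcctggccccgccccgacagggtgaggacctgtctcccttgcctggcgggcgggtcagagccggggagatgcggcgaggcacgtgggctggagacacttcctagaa
Sema7a: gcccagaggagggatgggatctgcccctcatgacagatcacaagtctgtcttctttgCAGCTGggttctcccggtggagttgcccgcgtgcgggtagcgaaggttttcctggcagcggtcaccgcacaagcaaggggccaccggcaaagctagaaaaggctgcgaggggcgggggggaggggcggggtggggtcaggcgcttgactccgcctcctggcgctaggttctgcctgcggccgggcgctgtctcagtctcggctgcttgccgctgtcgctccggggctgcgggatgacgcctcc
Sema5b: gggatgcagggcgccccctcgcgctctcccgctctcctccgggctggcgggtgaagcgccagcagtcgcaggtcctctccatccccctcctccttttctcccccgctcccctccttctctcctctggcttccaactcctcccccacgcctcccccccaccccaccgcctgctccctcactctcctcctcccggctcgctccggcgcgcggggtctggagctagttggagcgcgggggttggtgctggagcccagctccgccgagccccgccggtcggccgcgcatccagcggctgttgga
Capitals mark 2 forms of the E-box, the short motif bound by Atoh1 and its relatives: CAGCTG, which reads the same on both strands, and CAGATG, searched also as CATCTG for the other strand. These do not overlap each other. The Epha1 window held 1 CAGATG, the Sema7a window 1 CAGCTG, and the windows of Sema3e and Sema5b neither. Of 32851 promoters of all genes, 16.3% held CAGCTG and 17.2% CAGATG; of the 75 promoters found for 59 of the 69 guidance genes, 12 (16%) held the first and 5 (6.67%) the second. A match describes letters only, and no match says only that these letters are not in this window.

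Neuron-like cells held the receptors Dcc, Unc5c, Robo3 and Epha5, each of which stayed under 10 CPM in the hair-cell-like cells of every library. Within GFP low, where both classes were well filled, 30 of 47 measured guidance genes were called higher in neuron-like than in hair-cell-like cells, against 22.5% of all measured genes, and 9 were called lower, against 22.8%. The median difference of the guidance genes was 1.79 on the log2 scale, against 0.05 over all genes. The same comparison gave 31 higher of 47 at day 16 (background 20.4%), 31 of 42 at day 20 (background 25.2%) and 31 of 48 in GFP high (background 20.1%).

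Dcc, the attractive netrin receptor, stood at 113 (day 16), 69.8 (day 20), 209.7 (GFP high) and 135 CPM (GFP low) in neuron-like cells. Its level in hair-cell-like cells was 1.94 (day 16), 0.471 (day 20), 0.0733 (GFP high) and 0.603 CPM (GFP low). Neuron-like cells of each library were far above the hair-cell-like cells of each library, with a ratio in GFP low of 223 (95% interval 124 to 448). After thinning each cell to 3000 UMIs, 32.8% (95% interval 29.5 to 36.2%) of the neuron-like cells of GFP low had a Dcc UMI, against 0.276% (95% interval 0.0334 to 0.993%) of the hair-cell-like cells, with median depths of 20371 and 25095 UMIs; without thinning the shares were 69.2% and 1.36%. Hair-cell-like cells were set beside them as a class with a low level, so their share is not a separate measure of background RNA. Unc5c, a repulsive netrin receptor, stood at 97.2 (day 16), 99.3 (day 20), 54.1 (GFP high) and 57.7 CPM (GFP low) in neuron-like cells. In hair-cell-like cells Unc5c stayed between 0.0916 and 1.88 CPM, and mesenchyme-like cells lay between the classes at 26.7 CPM at day 16 and 23.2 at day 20. Unc5d and Unc5a, relatives of Unc5c, were also called higher in neuron-like cells of GFP low, with ratios of 31.3 (95% interval 18.7 to 56.3) and 6.83 (95% interval 4.84 to 9.89).

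Robo3, the Robo that commissural axons use while they cross the midline, stood at 84.6 (day 16), 26.8 (day 20), 244 (GFP high) and 94.4 CPM (GFP low) in neuron-like cells, and at 1.29 (day 16), 0.471 (day 20), 0.256 (GFP high) and 0.713 CPM (GFP low) in hair-cell-like cells. Day 20 was the lowest of the neuron-like values and GFP high the highest, and none overlapped the hair-cell-like values. Robo2 was called higher in neuron-like cells of GFP low with 70.4 against 4.39 CPM (ratio 16.1, 95% interval 12.8 to 20.4), and Robo1 with 83.3 against 18 CPM (ratio 4.63, 95% interval 4.11 to 5.24). Robo1 did not separate the classes at day 16, where neuron-like cells held 81.2 CPM, hair-cell-like cells 80.6 and mesenchyme-like cells 79.6. Slit2, a ligand of Robo1 and Robo2, was 26 CPM in neuron-like and 0.658 CPM in hair-cell-like cells of GFP low (ratio 39.5, 95% interval 22.4 to 77).

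Among Eph receptors, Epha5, Epha3, Epha10 and Ephb2 marked the neuron-like side. Epha5 stood at 181 (day 16), 139 (day 20), 354 (GFP high) and 162 CPM (GFP low) in neuron-like cells and at no more than 9.25 CPM in hair-cell-like cells, the day 16 value. In GFP low the ratios of neuron-like over hair-cell-like cells were 52.7 (95% interval 40.5 to 69.99) for Epha5, 28.9 (95% interval 19.1 to 46) for Epha3, 80.9 (95% interval 36.9 to 222) for Epha10 and 48.4 (95% interval 31.8 to 77.6) for Ephb2. Epha10 lacks kinase activity, while the other 3 are kinases. Ephrins, their ligands, were called higher on the same side: Efnb3 had a ratio of 20.5 (95% interval 15.4 to 28.1), Efna2 of 12.1 (95% interval 9.65 to 15.3) and Efna5 of 5.03 (95% interval 4.14 to 6.15). Nrp1, the neuropilin best known as the Sema3a receptor, was 17.7 CPM in neuron-like and 0.548 CPM in hair-cell-like cells, and Nrp2 was 65.2 and 18.3 CPM.

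The genes called lower in neuron-like cells were Epha1, Sema3e, Plxna4, Sema4d, Plxnb2, Ephb3, Slit3, Sema6d and Sema3a. Epha1 stood at 16.8 (day 16), 33.9 (day 20), 59.7 (GFP high) and 74.1 CPM (GFP low) in hair-cell-like cells, and at no more than 0.894 CPM in the neuron-like cells of any library. Hair-cell-like cells were above neuron-like cells in each library, and in GFP low the level was 184 (95% interval 88.9 to 458) times that of neuron-like cells. At 3000 UMIs a cell, 19.4% (95% interval 16.6 to 22.5%) of hair-cell-like cells of GFP low had an Epha1 UMI, against 0.254% (95% interval 0.0308 to 0.916%) of neuron-like cells; unthinned shares were 64.8% and 0.845%. Sema3e stood at 31.2 (day 16), 21.7 (day 20), 62.1 (GFP high) and 59.4 CPM (GFP low) in hair-cell-like cells and between 2.94 and 5.25 CPM in neuron-like cells, and its GFP low ratio of hair-cell-like over neuron-like cells was 20.2 (95% interval 15.3 to 27.3). Plxna4, a plexin that pairs with neuropilins and also binds class 6 semaphorins, did not keep its direction across libraries. Neither did Sema6d, which was 6.88 CPM in hair-cell-like and 21.9 in neuron-like cells at day 16, and 50.9 and 22.6 CPM in GFP low. Plxna4 was 21.9 CPM in hair-cell-like and 108 CPM in neuron-like cells at day 16, and 361 against 67.6 CPM in GFP low, where the hair-cell-like level was 5.35 (95% interval 5.02 to 5.69) times the other.

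**Figure D2:**
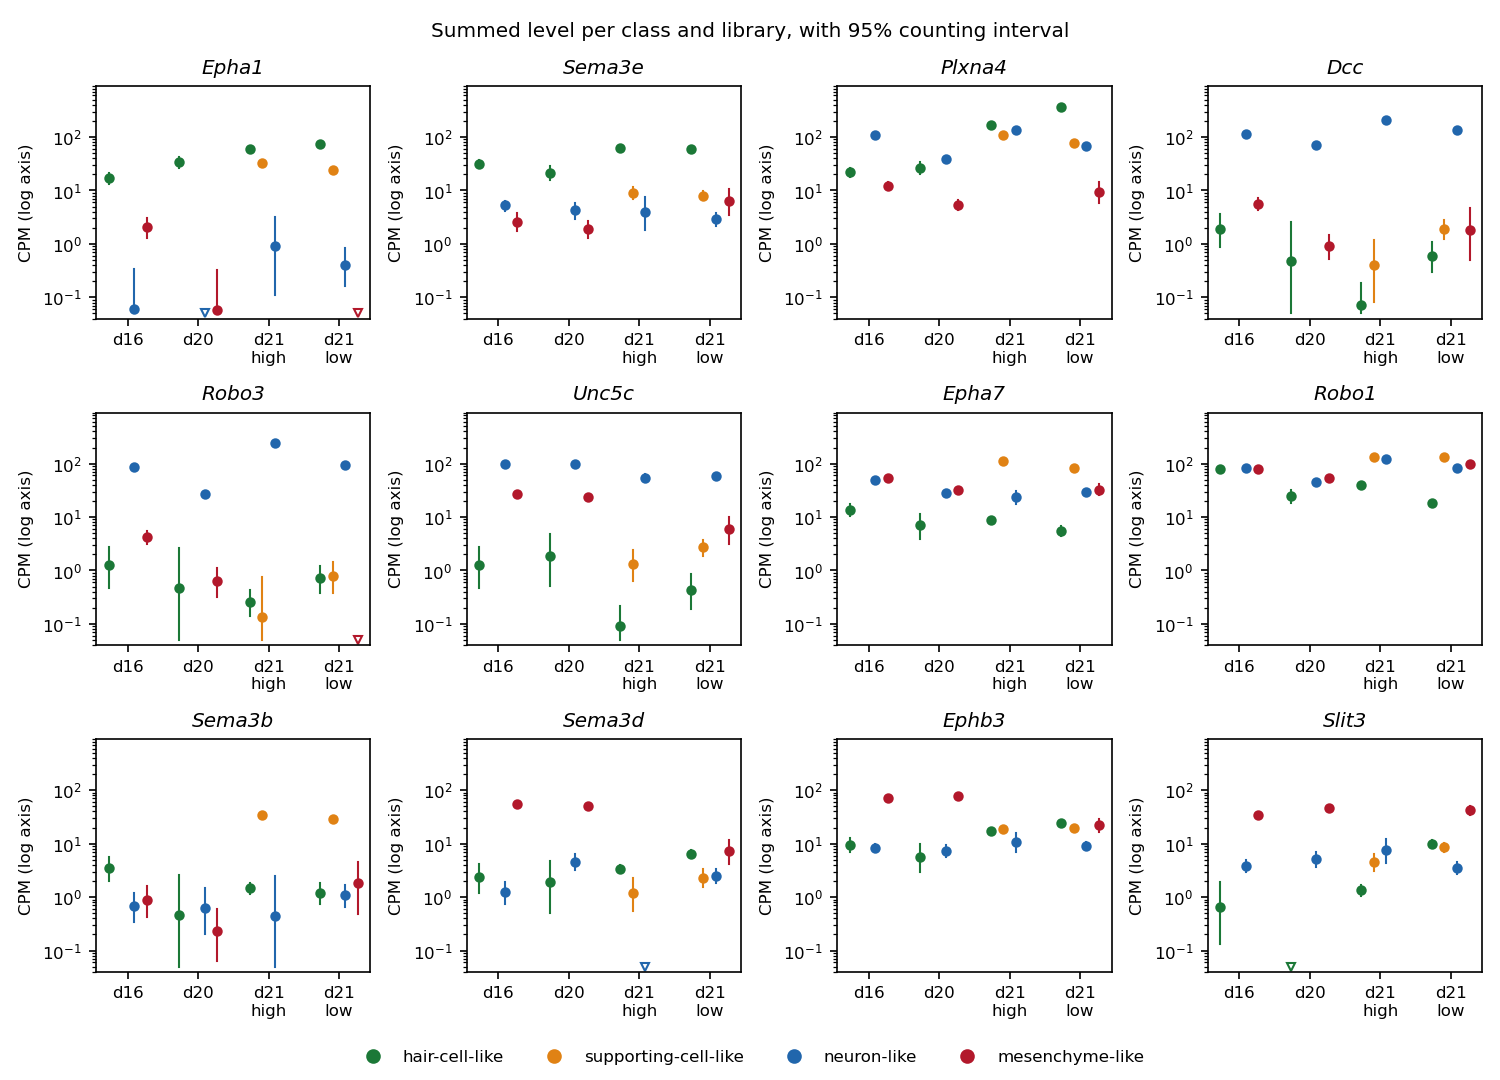
Summed level (CPM, log axis) of 12 guidance genes in each library (day 16, day 20, day 21 GFP high and GFP low), with 95% counting intervals; colour gives the class, classes under 50 cells are not drawn, and open triangles mark values with no UMI. Dcc and Robo3 lie highest in neuron-like cells of each library, Epha1 and Sema3e in hair-cell-like cells, Sema3b in supporting-cell-like cells, and Sema3d and Slit3 in mesenchyme-like cells.

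Hair cells and the supporting cells around them differed in most guidance genes that were measured. In GFP low, 9 of 35 measured guidance genes were called higher in hair-cell-like than in supporting-cell-like cells (background 19.7%) and 16 lower (background 17.5%). In GFP high, 7 of 34 were higher (background 18.2%) and 16 lower (background 15.7%). The median difference in GFP low was -0.71 on the log2 scale over guidance genes and 0.08 over all genes.

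Semaphorins made up 5 of the 9 genes on the hair cell side in GFP low and 6 of the 7 in GFP high. They are also the largest family, 20 of the 69 genes, and their share of the measured genes was not counted. Sema3b, Sema3f and Sema4b were called on the supporting cell side in both libraries, and Sema6a in GFP high. Sema3a, a secreted repellent, was 33.8 CPM in hair-cell-like and 1.91 CPM in supporting-cell-like cells of GFP low (ratio 17.7, 95% interval 11.8 to 27.9), and 25 against 1.6 CPM in GFP high. Sema6b, a transmembrane semaphorin, was 36 against 2.31 CPM in GFP low (ratio 15.6, 95% interval 10.8 to 23.5) and 43.1 against 4.39 CPM in GFP high. Sema3e had a GFP low ratio of 7.4 (95% interval 6.03 to 9.16), and Sema6d of 3.15 (95% interval 2.7 to 3.69). The plexin Plxna4 was higher in hair-cell-like cells of GFP low, with 361 against 76.9 CPM (ratio 4.7, 95% interval 4.39 to 5.03). In GFP high the Plxna4 levels were 165 and 111 CPM, a ratio of 1.49 (95% interval 1.39 to 1.6), short of the 2-fold rule. Plxna2, another A-type plexin, passed in both libraries with ratios of 5.84 (95% interval 4.81 to 7.16) and 4.94 (95% interval 3.55 to 7.08).

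Supporting-cell-like cells were higher in 2 secreted semaphorins, in ephrins and in several Eph receptors. Sema3b was 29.2 CPM (95% interval 26.3 to 32.3) there and 1.21 CPM in hair-cell-like cells of GFP low, and 35 against 1.47 CPM in GFP high. Sema3f was 37 against 3.84 CPM in GFP low. Epha7 was 84.5 against 5.54 CPM in GFP low and 111 against 8.72 CPM in GFP high, so the supporting-cell-like level was 15.3 (95% interval 12.4 to 18.9) and 12.8 (95% interval 11.4 to 14.3) times that of hair-cell-like cells. Ephb1, which binds ephrin-B ligands, was 56.6 against 5.59 CPM in GFP low. Its ligand Efnb2 was on the same side, 51.5 against 12.9 CPM. Ephrin-A ligands Efna1, Efna3, Efna4 and Efna5 were all called higher in supporting-cell-like cells in both libraries, with GFP low ratios between 2.79 (95% interval 2.41 to 3.24) for Efna3 and 7.97 (95% interval 6.26 to 10.3) for Efna4. Robo1 was 130.3 against 18 CPM in GFP low and 132 against 39.8 CPM in GFP high. Both libraries gave the supporting-cell-like side for Robo1, by 7.25 (95% interval 6.44 to 8.19) and 3.31 (95% interval 3.07 to 3.57) times.

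At day 16 mesenchyme-like cells were higher than neuron-like cells in the secreted ligands Sema3d, Slit3 and Ntn1 and in the receptors Ephb3, Ephb4, Epha3 and Nrp1, and lower in Dcc, Robo3, Unc5c and Epha5. There 15 of 51 measured guidance genes were called higher in mesenchyme-like than in neuron-like cells (background 17.8%) and 17 lower (background 21.7%); the shares of guidance genes higher and lower were 29.4% and 33.3%. Sema3d, a secreted semaphorin, was 55.7 CPM in mesenchyme-like and 1.22 CPM in neuron-like cells (ratio 45.6, 95% interval 29.3 to 75.2), and at day 20 51.4 against 4.63 CPM. Slit3 was 34.6 against 3.85 CPM at day 16 and 46.5 against 5.13 CPM at day 20. Ntn1, the founding netrin ligand, was 12.2 against 0.977 CPM at day 16 and 24 against 2.25 CPM at day 20. Of the receptors, Ephb4, known from veins, was 48.3 against 1.34 CPM (ratio 36, 95% interval 23.5 to 57.9), Ephb3 70.6 against 8.43 CPM, and Plxnd1, a plexin of vessels and the receptor of Sema3e, 28.8 against 1.22 CPM (ratio 23.6, 95% interval 15 to 39.2). Nrp1 was 107 against 37.4 CPM (ratio 2.86, 95% interval 2.59 to 3.16). Dcc, Robo3, Plxna2 and Plxna4 were among the genes lower in mesenchyme, with neuron-like levels 20.4 (95% interval 15.8 to 26.7), 20.2 (95% interval 15.1 to 27.6), 11.3 (95% interval 8.5 to 15.5) and 8.92 (95% interval 7.49 to 10.7) times those of mesenchyme-like cells. At day 20, 17 of 50 were higher (background 16.9%) and 22 lower (background 31.0%). In GFP low, with 99 mesenchyme-like cells, 10 of 49 were higher (background 19.2%) and 24 lower (background 27.8%). Slit3, Ntn1, Ephb3, Ephb4, Plxnd1 and Nrp1 were called higher in all 3 libraries, whereas Sema3d (7.22 against 2.54 CPM) was not called in GFP low and Epha3 was called lower there (9.48 against 36.5 CPM).

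One mesenchyme cluster stood apart from the others in RNA content. The Postn-led cluster had median depths of 2693 UMIs at day 16 and 2383 at day 20, and Malat1, a nuclear RNA, took 102776 and 138402 CPM there, against 7681 CPM in the Ccl19-led cluster at day 20. Ribosomal protein genes were 4.54% of its UMIs at day 16, against 29.5% in the Ccl2-led cluster. Guidance genes took 0.56% of its UMIs at day 16 and 0.533% at day 20. At day 16, 42 of 51 measured guidance genes were called higher there than in the other mesenchyme-like cells, where 32.9% of all genes were, and at day 20 it was 37 of 43, against 39.5%. Nrp1, for example, reached 466 CPM at day 16 and 603 at day 20. The part of depth and RNA type in these levels was not tested; the cluster holds 6.9% of mesenchyme-like UMIs at day 16 and 4.62% at day 20, and leaving it out moved none of the counts of genes called by over 1.5 times.

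Further members of these families also differed between classes. Of the other netrins, Ntn4 was 11.7 CPM in supporting-cell-like cells of GFP high and 0.33 in hair-cell-like cells, with 13.9 in neuron-like cells. Ntn3 was 16.5 CPM in mesenchyme-like and 4.4 in neuron-like cells at day 16, and Ntn5 was 12.5 CPM in mesenchyme-like cells at day 20 and 0.125 in neuron-like cells. Class 4 semaphorins, which are transmembrane ligands, split by member. Sema4a was 13.1 CPM in neuron-like and 0.215 in hair-cell-like cells at day 16, and Sema4b was 55.3 CPM in supporting-cell-like and 11.7 in hair-cell-like cells of GFP low. Sema4d, best known as the ligand of Plxnb1, was 35.1 CPM in hair-cell-like cells of GFP low, 20.3 in supporting-cell-like and 6.51 in neuron-like cells. Its receptor Plxnb1 was 8.83, 29.9 and 22.4 CPM in these classes, so the ligand was highest where the receptor was lowest among them. Mesenchyme-like cells of GFP low did not follow this, since both genes were called lower there than in all other cells. Plxnb2, the widely expressed B-type plexin, lay between 29.1 and 73.8 CPM in the 4 classes of GFP low. Ephb6, an Eph receptor without kinase activity, was 11.7 CPM in neuron-like and 0.219 in hair-cell-like cells of GFP low. Sema5a was highest in mesenchyme-like cells of each library with 50 of them, at 71.3 CPM at day 16, 44 at day 20 and 79 in GFP low.

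Some ligands and their receptors were highest in different classes. Mesenchyme-like cells of GFP low, however, held both Sema3a and Nrp1, and both Slit3 and Robo1. Sema3e stood at 59.4 CPM in hair-cell-like cells of GFP low, while its receptor Plxnd1 was 0.329 CPM there, 2.07 in neuron-like and 23.9 in mesenchyme-like cells. Sema3a was present in hair-cell-like cells at 33.8 CPM and in mesenchyme-like cells at 28.4, whereas Nrp1, which Sema3a needs on the receiving cell, was 0.548 CPM in hair-cell-like, 17.7 in neuron-like and 140.4 in mesenchyme-like cells. Sema7a, read by Plxnc1 and by integrins, was 28.2 CPM in hair-cell-like cells at day 16, while Plxnc1 was 30.1 CPM in neuron-like cells and 2.37 in hair-cell-like cells. This did not hold in all libraries. At day 20 Sema7a was called higher in hair-cell-like and also in neuron-like cells than in all other cells. In GFP low it was not called different between these classes, and Plxnc1 was called higher in both neuron-like and mesenchyme-like cells than in all other cells. Slit3 of mesenchyme-like cells in GFP low (42 CPM) stood beside Robo1 in supporting-cell-like (130.3 CPM), mesenchyme-like (96.6 CPM) and neuron-like cells (83.3 CPM). Ntn1 of mesenchyme-like cells (23 CPM in GFP low) stood beside Dcc of neuron-like cells (135 CPM). Levels of RNA alone are given here, and contact or signalling between the classes was not measured.

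Hair-cell-like cells themselves fell into clusters that differed in guidance genes, and part of the differences were called in both day 21 libraries. The clusters are called by 1 of their leading genes: Grp, Apom (with Pvalb and Calb2), Cib3 (after Dnajc5b) and Bmp2 (after Olfm4). A further cluster, led by Ocm, raised all 22 hair cell markers but stayed unnamed because a supporting cell marker, Cldn14, was among its leading genes. In GFP high, 24 of 33 measured guidance genes were called higher in at least 1 hair cell cluster than in the other hair-cell-like cells (background 19.7%), and in GFP low 23 of 34 (background 19.7%). Reporter RNA, Egfp, was 10271 CPM in the Grp-led and 7159 CPM in the Apom-led cluster of GFP high, and 1465 and 979 CPM in the Cib3-led and Bmp2-led clusters. Mitochondrial UMIs were 3.75% in the Grp-led cluster of GFP high and 9.51% in the Bmp2-led cluster, and their part in the differences was not tested.

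The Grp-led cluster was higher in Sema7a, Sema5b, Robo1, Robo2, Ephb1, Efna4, Epha2 and Epha7 than the other hair-cell-like cells in both libraries. Sema7a was 66.1 CPM there in GFP high and 56.7 in GFP low, against 3.54 and 2.35 CPM in the Cib3-led cluster; its ratio to the other hair-cell-like cells was 4.95 (95% interval 4.45 to 5.51) and 12 (95% interval 8.64 to 16.6). Robo1 was 88.1 and 86.2 CPM in the Grp-led cluster, with ratios of 5.6 (95% interval 5.09 to 6.17) and 6.9 (95% interval 5.46 to 8.69). Neither gene was called different between the gates within this cluster. Robo2 was 15.6 CPM in GFP high and 33.2 in GFP low, and it is 1 of 3 genes whose level in this cluster was called different between the gates. Sema5b was 26.9 and 21.4 CPM, and 30.5 CPM in the Apom-led cluster of GFP high, where Sema7a was 38.5 CPM. Ephb1 was 20.5 and 25.8 CPM in the Grp-led cluster and 2.53 CPM in the Apom-led cluster of GFP high. The Apom-led cluster thus resembled the Grp-led cluster in Sema5b and not in Ephb1. The day 16 hair-cell-like cells, of which 76.3% lay in the Grp-led cluster, had 28.2 CPM of Sema7a and 80.6 CPM of Robo1.

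The Cib3-led cluster was higher in other genes. Sema6d, a transmembrane semaphorin that signals through A-type plexins, was 99.9 CPM there in GFP high and 102 in GFP low, with ratios to the other hair-cell-like cells of 7.38 (95% interval 6.65 to 8.21) and 15.5 (95% interval 12 to 20.3). All other hair cell clusters, and the Ocm-led cluster, lay between 2.36 and 21.2 CPM, so Sema6d separated the Cib3-led cluster from each of them. Epha1 was 101 and 108 CPM in the Cib3-led cluster, 18.5 and 12.5 in the Grp-led cluster, and 93.2 and 64.2 in the Ocm-led cluster. Sema3e was 88.5 and 79.1 CPM in the Cib3-led cluster, and 24.5 and 22.1 CPM in the Grp-led cluster. Unlike Epha1, Sema3e was also high in the Apom-led cluster of GFP high, at 73.3 CPM. Efnb1, Plxna3, Epha1 and Sema6d were called higher in the Cib3-led cluster than in the other hair-cell-like cells in both gates. Sema3a, Sema3e, Sema4c, Sema4d, Plxna2, Plxna4 and Ephb3 were called so in GFP high, where the Grp-led cluster makes up a larger share of the others, and Epha4 in GFP low.

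The Bmp2-led cluster was higher in the A-type plexins Plxna4 and Plxna1 in both gates. Plxna4 was 482 CPM there in GFP high and 510.3 in GFP low, against 270.4 and 289 in the Cib3-led, 213 and 313 in the Ocm-led, 94.1 (GFP high) in the Apom-led and 23.1 and 8.84 CPM in the Grp-led cluster. The Bmp2-led cluster was highest and the Grp-led lowest in both gates, while the Cib3-led and Ocm-led clusters changed places. Slit3 was 13.8 and 18.4 CPM in the Bmp2-led cluster and 1.32 and 3.65 in the Cib3-led cluster, and it was also 16.2 and 30.2 CPM in the Ocm-led cluster. Slit3, Sema4g and Sema6a were called higher in the Bmp2-led cluster in both gates as well, Sema4g at 45.6 and 62.4 CPM. Epha4, a receptor that binds both ephrin classes, was called lower there, with 22.8 CPM in GFP high and 6.1 in GFP low. In the Cib3-led cluster Epha4 was 97.3 and 74.3 CPM.

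**Figure D3:**
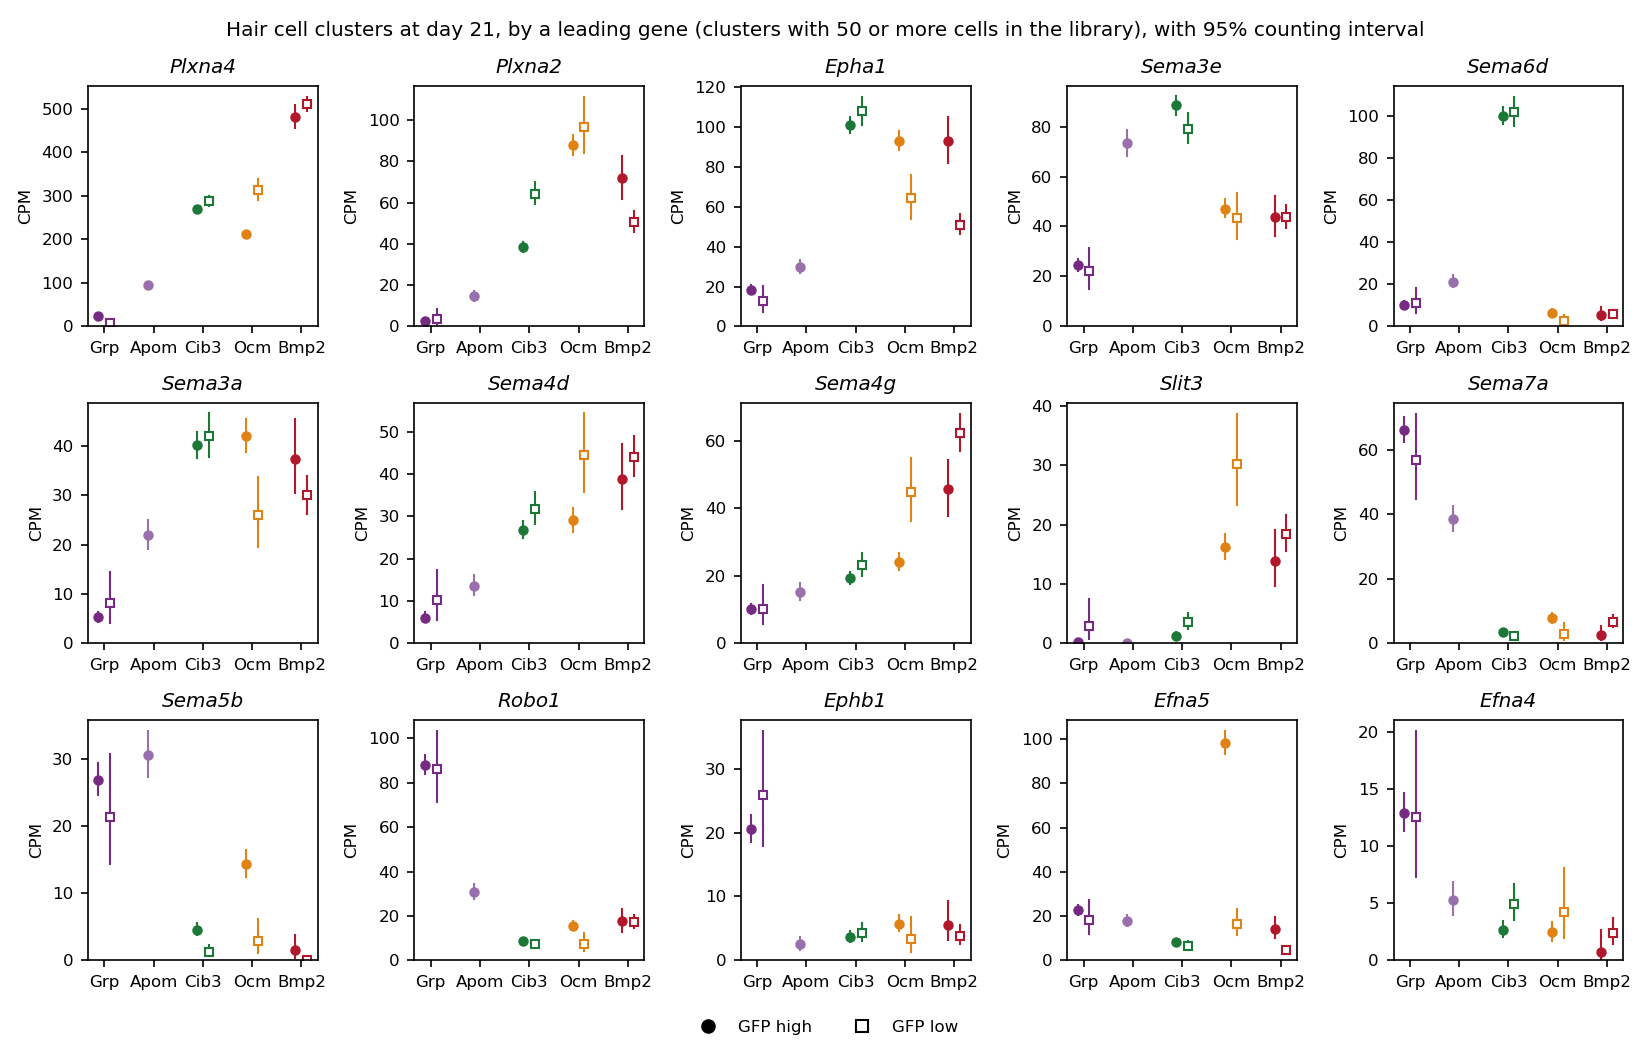
Level (CPM, with 95% counting intervals) of 15 guidance genes in the hair cell clusters of day 21, named by 1 leading gene; filled circles are GFP high and open squares GFP low, and the Apom-led cluster is drawn for GFP high only, since it had 19 cells in GFP low. Sema7a, Robo1 and Efna4 are highest in the Grp-led cluster, Sema6d in the Cib3-led cluster and Plxna4 in the Bmp2-led cluster, while Slit3 is high in both the Bmp2-led and the Ocm-led cluster and Efna5 in the Ocm-led cluster of GFP high.

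The GFP high and GFP low libraries of day 21 differed in guidance genes in the sum of all cells, within hair-cell-like cells and within neuron-like cells. Over all cells, 4 of 48 measured guidance genes were called higher in GFP high (background 6.92%): Epha1, Sema6b, Sema7a and Sema5b. Called lower were 11 (background 7.66%), among them Dcc, Unc5c, Nrp1, Efnb3, Ephb2, Robo3 and Epha5. Dcc was 6.61 CPM in GFP high and 32.1 in GFP low, so GFP low held 4.86 (95% interval 4.48 to 5.28) times as much. Neuron-like cells were 104 of 3435 cells in GFP high and 828 of 3686 in GFP low, and in a sum over all cells fewer cells of a type and less RNA per cell cannot be told apart. Within neuron-like cells Dcc was 209.7 CPM in GFP high and 135 in GFP low, a ratio of 1.56 (95% interval 1.41 to 1.72) in the other direction. Hair-cell-like cells were 1809 of 3435 cells in GFP high and 738 of 3686 in GFP low. Within hair-cell-like cells Epha1 was lower in GFP high, short of the 2-fold rule, and Sema6b was not called. Sema7a and Sema5b were called higher there too. The median difference over all cells was -0.47 on the log2 scale for guidance genes and -0.04 for all genes.

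Within hair-cell-like cells, 4 of 27 measured guidance genes were called higher in GFP high (background 4.09%) and 4 lower (background 2.56%), with a median difference of -0.28 against 0.01 over all genes. Higher were Sema5b (16.7 against 2.8 CPM, ratio 5.99, 95% interval 4.52 to 8.11), Sema7a (30.9 against 8.61 CPM, ratio 3.59, 95% interval 3.05 to 4.26), Robo1 (39.8 against 18 CPM) and Efna5 (15.1 against 6.85 CPM). Lower were Slit3 (1.34 against 10.03 CPM), Plxna4 (165 against 361 CPM), Plxna2 (23.7 against 53 CPM) and Sema4g (16.8 against 39.4 CPM). With a mitochondrial limit of 10% in place of 15%, 1 gene was called lower, and Plxna4, Sema4g and Plxna2 stood at -0.92, -0.82 and -0.57 on the log2 scale. Cluster make-up differed between the gates. The Grp-led cluster held 29.5% of hair-cell-like cells in GFP high and 8.54% in GFP low, the Bmp2-led cluster 4.98% and 40.5%, and the Cib3-led cluster 47.9% and 48.4%.

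The gates were also compared within single hair cell clusters. In the Cib3-led cluster, with 866 cells in GFP high and 357 in GFP low, 0 of 20 measured guidance genes were called higher and 0 lower (backgrounds 0.449% and 0.482%). In the Grp-led cluster 2 of 29 were higher, Epha4 and Plxna4, and Robo2 was lower (backgrounds 4.93% and 2.17%). In the Bmp2-led cluster 3 of 22 were higher, Epha4, Efna5 and Efnb1, and Nrp2 was lower (backgrounds 1.86% and 1.04%). In the Ocm-led cluster, 5 of 28 were higher, Epha4, Sema5b, Robo1, Robo2 and Efna5, and 0 lower (backgrounds 4.3% and 1.25%). Epha4 was thus called higher in GFP high in 3 of these 4 clusters: 53.4 against 18.4 CPM in the Grp-led (ratio 2.9, 95% interval 1.95 to 4.5), 22.8 against 6.1 CPM in the Bmp2-led (ratio 3.74, 95% interval 2.52 to 5.56) and 56 against 10.4 CPM in the Ocm-led cluster (ratio 5.39, 95% interval 3.53 to 8.64). Efna5, a ligand of EphA receptors, was 98.3 against 16.5 CPM in the Ocm-led cluster (ratio 5.95, 95% interval 4.26 to 8.57). Those clusters hold 63 to 534 cells in a gate, and their intervals cover counting error alone.

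In supporting-cell-like cells 0 of 30 measured guidance genes were called higher in GFP high and 0 lower, where 0.281% and 0.584% of all genes were, and the median difference was 0.01. Epha7, for example, was 111 CPM (95% interval 104 to 119) in GFP high and 84.5 CPM (95% interval 79.5 to 89.8) in GFP low, a ratio of 1.32 (95% interval 1.2 to 1.45). In neuron-like cells 6 of 48 were called higher (background 1.7%) and 3 lower (background 3.51%), but the GFP high side rests on 104 cells. The Neurod6-led cluster, of which Epha5 is a leading gene, held 22.1% of neuron-like cells in GFP high and 4.23% in GFP low, and the part of this shift was not tested. Robo3 was 244 against 94.4 CPM (ratio 2.58, 95% interval 2.34 to 2.84), and 10 cells held 49.7% of its GFP high UMIs. Epha5 was 354 against 162 CPM, with 49.9% of its GFP high UMIs in 10 cells. With 2000 or more detected genes per cell 1 gene was called higher, and with a mitochondrial limit of 10% or with doublets kept 2 were. In the Otp-led neuron cluster alone, with 51 and 474 cells, Robo3 was 416 against 136 CPM (ratio 3.05, 95% interval 2.75 to 3.38).

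**Figure D4:**
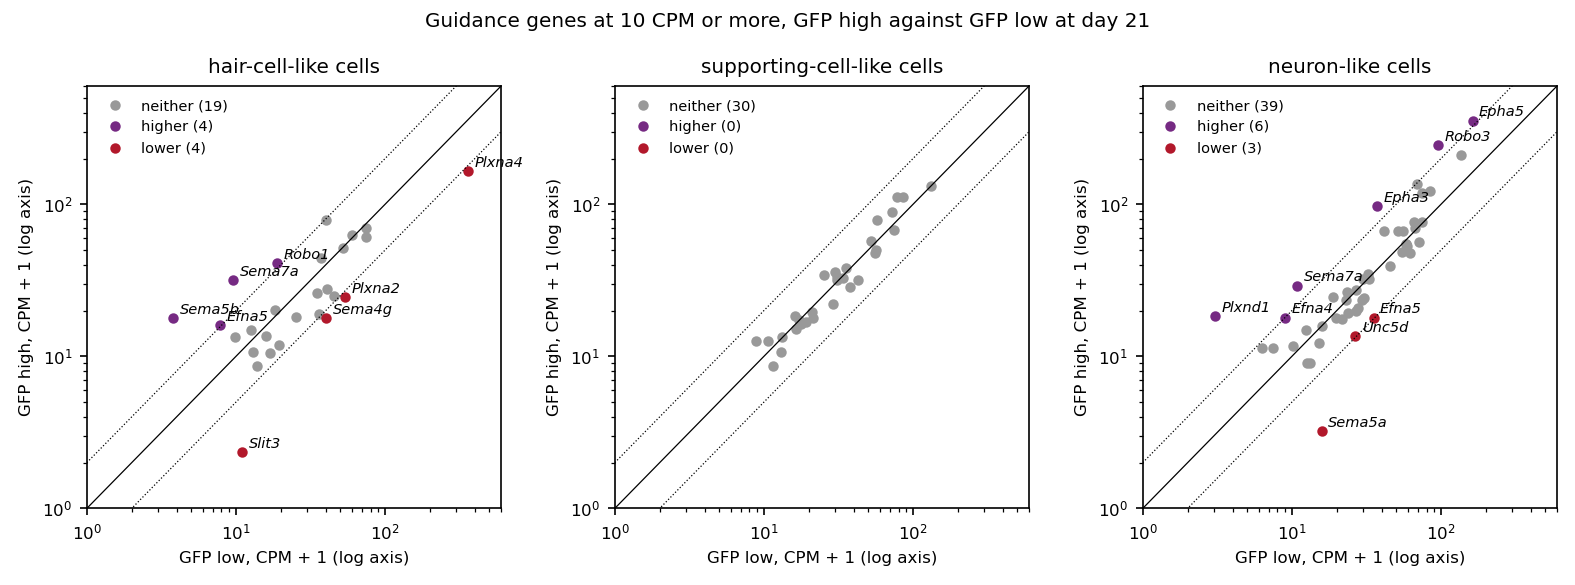
Each point is a guidance gene at 10 CPM or more, with its GFP low level (CPM + 1, log axis) against its GFP high level (same scale) at day 21, within hair-cell-like, supporting-cell-like and neuron-like cells. Solid lines mark equality and dotted lines a ratio of 2; purple points were called higher and red points lower in GFP high. There are 4 and 4 such points in hair-cell-like cells, 0 and 0 in supporting-cell-like cells, and 6 and 3 in neuron-like cells.

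Neuron-like cells fell into 5 clusters, led by Lhx9, Slc32a1 (the vesicular transporter of inhibitory neurons), Otp, Calb1 with Pcp2 and Foxp2, and Neurod6. Many of these leading genes belong to neurons of the brain and spinal cord, so the clusters are called by leading gene only. Guidance genes called higher in at least 1 such cluster than in the other neuron-like cells were 14 of 44 measured at day 16 (background 8.55%), 32 of 51 at day 20 (background 25.5%) and 17 of 51 in GFP low (background 18.2%). The number of clusters with 50 cells was 3, 5 and 3, so the counts are not like for like.

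Unc5c was called higher in the Slc32a1-led cluster at day 20 (273 CPM) and in GFP low (328 CPM), and in the Calb1-led cluster at day 16 (167 CPM, with 152 CPM in the Slc32a1-led cluster). In GFP low the ratio of the Slc32a1-led cluster to the other neuron-like cells was 36.3 (95% interval 30.2 to 43.9). In the Otp-led cluster Unc5c was 9.24 CPM at day 20 and 2.86 in GFP low, and in the Calb1-led cluster 75.9 at day 20. Plxnc1, the Sema7a receptor, was also called higher in the Slc32a1-led cluster at day 20 (80.5 CPM) and in GFP low (55.2 CPM), though the Lhx9-led cluster reached 74.3 CPM at day 20. Dcc was 134 CPM at day 20 and 163 in GFP low in the Otp-led cluster, and in the Slc32a1-led cluster 216, 78.9 and 105 CPM across day 16, day 20 and GFP low. Robo3 was highest in the Slc32a1-led cluster at day 16 (329 CPM, ratio 11.1, 95% interval 9.88 to 12.5) and in the Otp-led cluster in GFP low (136 CPM, ratio 7.3, 95% interval 6.04 to 8.91). The cluster with most Robo3 was therefore not the same in these libraries. Slc32a1 was not confined to the cluster it leads, which had 140 cells in GFP low and was called lower in Robo3. In GFP low 316 neuron-like cells held 2 or more Slc32a1 UMIs. Robo3 was 128 CPM in them against 72.1 in the rest (ratio 1.78, 95% interval 1.61 to 1.965), short of the 2-fold rule. The Otp-led cluster had 10 cells at day 16 and is not measured there.

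The Calb1-led cluster was higher in the EphA receptors Epha5, Epha4 and Epha7 and lower in Epha10 at both day 16 and day 20, and Epha3 was called in neither direction. Epha5 was 336 CPM there at day 16 and 343 at day 20 (ratios 3.32, 95% interval 3.08 to 3.58 and 3.72, 95% interval 3.3 to 4.19), Epha4 156 and 120.2 CPM, and Epha7 93.8 and 61.8 CPM. Epha10 was 5.95 and 3.36 CPM, against 19.1 and 13.8 in the other neuron-like cells. Slit2 was called higher in this cluster at both times too, with 66.5 and 36.9 CPM. The Lhx9-led cluster was called higher in Slit1 in each of the 3 libraries, with 12.8 CPM at day 16, 15.6 at day 20 and 12 in GFP low. At day 20 its cells were shallow, with a median of 3705.5 UMIs against 7510 to 13861.5 in the other neuron-like clusters. Malat1 was 31586 CPM against 8002 to 14007. In GFP low its median was 10541 UMIs, against 18361.5 in the Slc32a1-led and 22840 in the Otp-led cluster. Malat1 was 25533 CPM there, against 15940 and 17371. The part of depth and Malat1 in the values of both libraries was not tested. Unc5d was called higher in the Lhx9-led cluster at day 20 (56.7 CPM) and in GFP low (69.7 CPM), as was Nrp1 (59.99 and 59.4 CPM). Ephb1 was called higher there at day 16 (75.6 CPM) and day 20 (81.5 CPM). The Neurod6-led cluster, measured at day 20, held 168 CPM of Sema6a, a transmembrane semaphorin, with a ratio of 2.55 (95% interval 2.19 to 2.96).

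**Figure D5:**
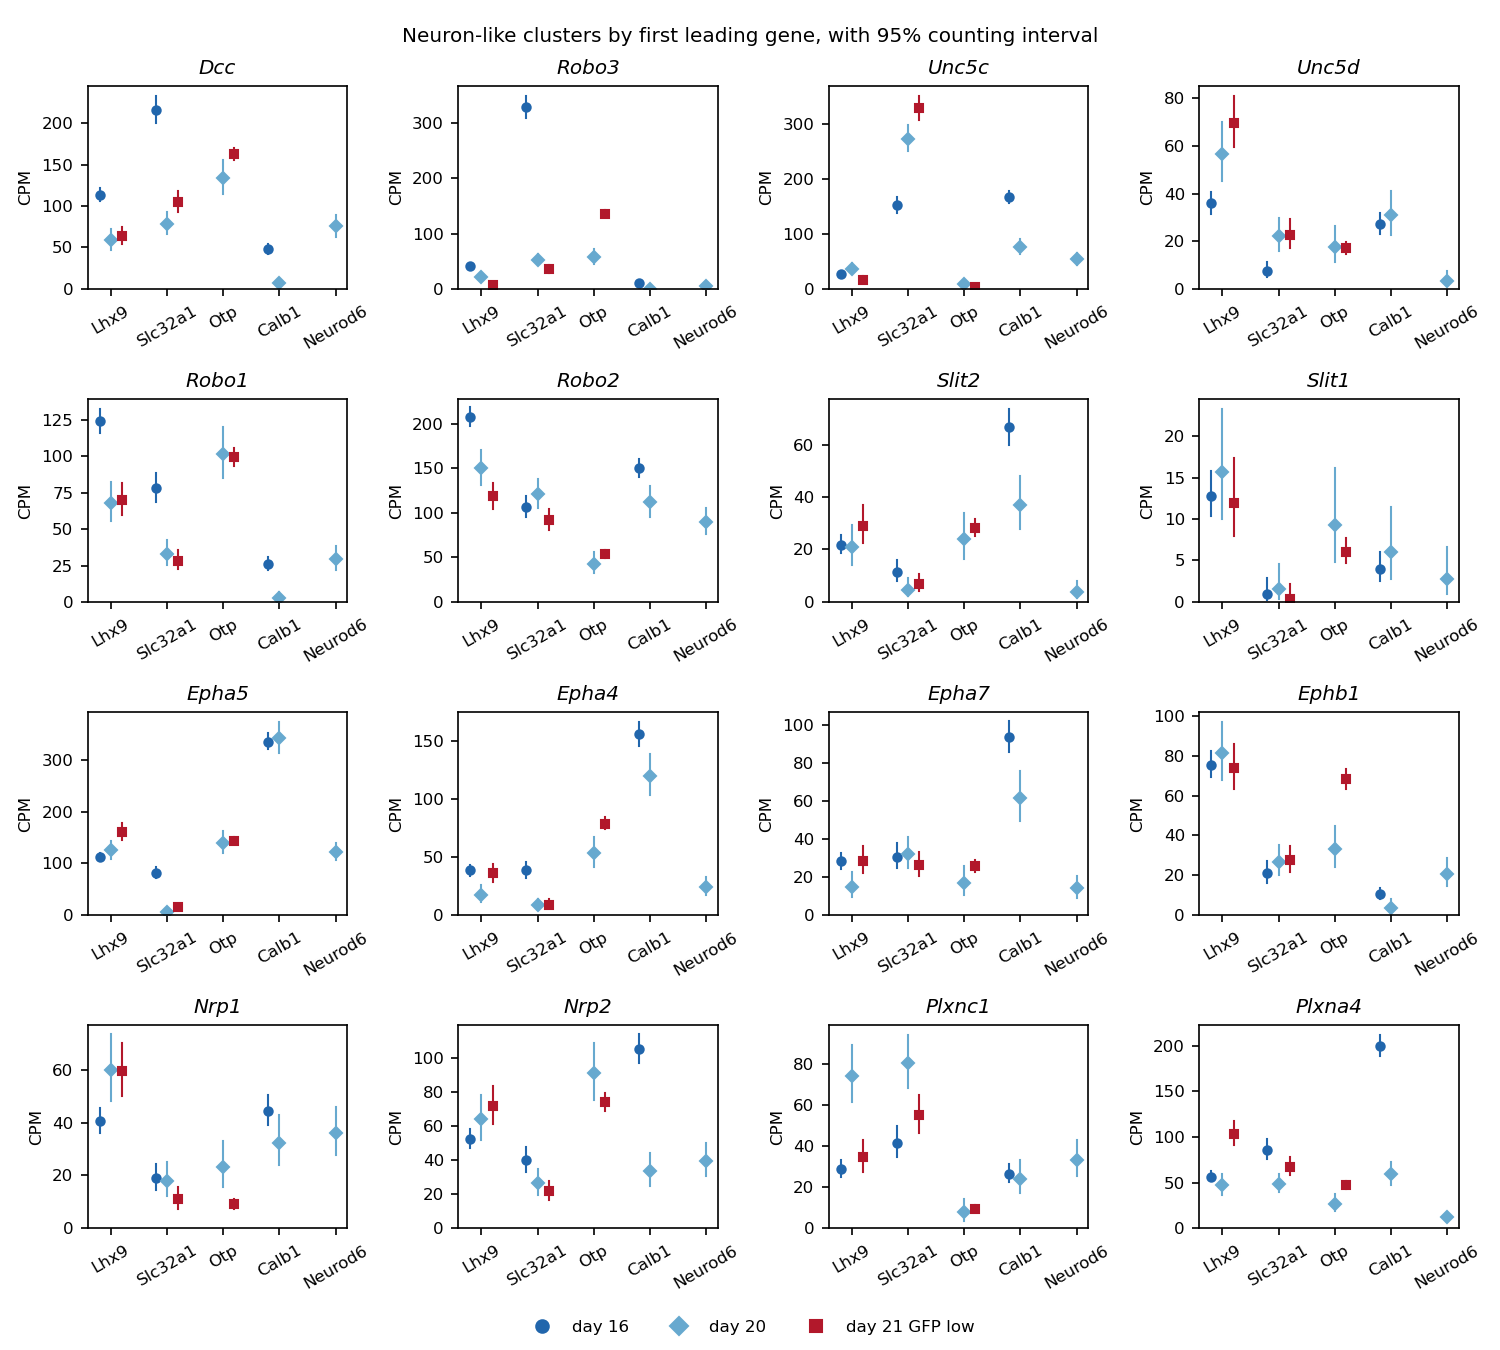
Level (CPM, with 95% counting intervals) of 16 guidance genes in the 5 neuron-like clusters, named by leading gene, at day 16 (circles), day 20 (diamonds) and in GFP low (squares); clusters under 50 cells in a library are not drawn. Unc5c and Plxnc1 are high in the Slc32a1-led cluster, Epha5, Epha4 and Epha7 in the Calb1-led cluster, and Unc5d in the Lhx9-led cluster.

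Between day 16 and day 20 more guidance genes were lower than higher at the later day. Over all cells 3 of 50 measured genes were called higher at day 20 (background 5.0%), Slit3, Efna1 and Ntn1, and 10 lower (background 6.85%), with Robo3, Plxna4 and Efna5 the lowest by ratio. The mesenchyme-like class held 944 cells at day 16 and 2043 at day 20, and Slit3, Efna1 and Ntn1 were higher in mesenchyme-like than in neuron-like cells at day 16. Scaling by TMM factors raised ratios by 0.186 on the log2 scale over all cells and left 6 guidance genes lower. Within neuron-like cells 0 of 42 were called higher (background 3.35%) and 5 lower (background 2.57%): Robo3 (26.8 CPM at day 20 against 84.6 at day 16), Sema3f (10.1 against 30.04), Plxna4 (38.6 against 108), Epha3 (22.3 against 57.5) and Slit2 (16.8 against 34.2). The clusters that make up the class shifted too: the Lhx9-led cluster held 42.6% of neuron-like cells at day 16 and 27.2% at day 20, and the Calb1-led cluster 34.1% and 15.1%.

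Within the Slc32a1-led cluster alone, with 235 cells at day 16 and 225 at day 20, 11 of 40 measured guidance genes were called lower at day 20 and 2 higher (backgrounds 5.93% and 5.85%). Robo3 was 52.1 CPM at day 20 and 329 at day 16, the earlier level being 6.31 (95% interval 5.12 to 7.83) times the later. Epha5 was 5.79 against 81.9 CPM, and Dcc 78.9 against 216 CPM. In the Calb1-led cluster 14 of 42 were lower and 2 higher (backgrounds 7.26% and 7.45%), with Dcc at 6.72 against 48.3 CPM and Robo1 at 2.69 against 26 CPM. In the Lhx9-led cluster only Epha4 of 44 was lower, and Sema3e, Sema5a and Plxnc1 were higher (backgrounds 3.7% and 6.17%). Differences between clusters in this respect were not tested.

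Mesenchyme-like cells had 9 of 43 measured guidance genes called lower at day 20 (background 9.18%) and 2 higher (background 3.96%). Ephrins differed in direction: Efna5 was 5.79 CPM at day 20 and 34.8 at day 16, Efnb2 9.52 against 38.8 and Efnb1 28 against 60.2, while Efna1 was 32.7 against 11.3 CPM (ratio 2.91, 95% interval 2.39 to 3.55). TMM scaling raised ratios by 0.31 on the log2 scale in this comparison and left 5 guidance genes lower. Most mesenchyme-like cells of day 20, 76.7%, lay in the Ccl19-led cluster, which held 1.8% at day 16. In the Ccl2-led cluster, present on both days with 306 and 140 cells, Efna5 was 23.1 against 51.7 CPM and Efna1 23.9 against 8.95 CPM, in the same directions. Efnb1 was called lower there too, whereas Efnb2 was called in neither direction. Hair-cell-like cells of the early libraries were few (139 and 123), and there 10 of 26 were lower at day 20 (background 10.9%) and 2 higher (background 6.66%). Robo1 was 24.5 CPM at day 20 against 80.6 at day 16, and Epha1 33.9 against 16.8. The Grp-led cluster held 76.3% of the hair-cell-like cells at day 16 and 35.8% at day 20.

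Genes of the same pathways that the symbol rule leaves out were read from 2 lists, 24 guidance and adhesion genes and 32 cytoplasmic effectors. In neuron-like over hair-cell-like cells of GFP low, 14 of 20 measured were higher and 3 lower among the first list, and 12 of 27 measured were higher and 2 lower among the effectors, where 22.5% and 22.8% of all genes were. Chl1 and L1cam, adhesion molecules that act with neuropilins, were 271 against 1.21 CPM and 105 against 1.15 CPM. Crmp1 and Dpysl5, collapsin response mediator proteins of the growth cone, were 806 against 25.4 CPM and 167 against 2.08 CPM. In hair-cell-like over supporting-cell-like cells of GFP low, 2 of 15 measured were higher and 9 lower among the first list. The effectors split, with 7 of 24 higher and 5 lower, where 19.7% and 17.5% of all genes were. Evl, which binds growing actin filaments, was 607 against 69.4 CPM. Within hair-cell-like cells Draxin, a secreted ligand of Dcc, was 22.8 CPM in GFP high and 2.41 in GFP low. Dcc itself stayed at or below 0.603 CPM in those cells.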

How the data were processed

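Filtered 10x Genomics matrices of UMI counts per gene and cell were used as deposited by the authors, 1 library per group; per the file headers they were made with Cell Ranger 6.1.2, and mm10, Seurat 4.0.6 and a further Cell Ranger version, 6.1.0, are named in the submitters' processing notes. Cells with 1000 or more detected genes and at most 15% mitochondrial UMIs were kept, and the highest Scrublet doublet scores were removed at 0.8% per 1000 barcodes. The 2000 variable genes used for clustering (scanpy 1.11.5, 30 components, 20 neighbours, Leiden resolution 1, 27 clusters) held none of the 69 guidance genes. Clusters were named from marker lists by a rule completed after the clusters were seen, and the unnamed ones include the Ocm-led cluster. UMIs were summed per class or cluster and library and scaled to CPM, with exact Poisson intervals for levels and exact conditional binomial intervals for ratios. Differences on the log2 scale use CPM + 1. Shares of cells use 3000 UMIs drawn per cell and Clopper-Pearson intervals. No test across samples is possible with 1 library per group. TMM factors came from edgeR 4.0.16. On simulated counts for GFP high over GFP low in hair-cell-like cells (9151 genes), the call rule found 199 of 200 genes changed 3-fold, the other lying under the minimum of 10 CPM in the draw, and 0 of 8952 unchanged genes. The simulated counts hold counting error only. Variation between cells, clusters and libraries is left out, so false calls in the real data are not measured by it. Values given in full are those of up to 10 called genes per comparison with the largest ratio at 20 CPM and 30 UMIs, up to 5 per class, their ligand or receptor partners, and up to 4 genes of each further list; values of other genes were chosen after they were seen. The genes, gene lists and marker lists were chosen with earlier results of these data known. Annotation of all 69 genes came from GENCODE M21.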

Additional observations from a re-analysis of the deposited data

Results flagged for a closer look

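Efna5, an ephrin-A ligand bound to the membrane, differed in opposite directions between the day 21 gates in 2 classes. GFP high over GFP low was 1.04 on the log2 scale in hair-cell-like cells and -0.98 in neuron-like cells, and each class was past the 2-fold rule in its own direction. The difference between the classes was not tested, since each gate is 1 library. The neuron-like value rests on 38 UMIs in GFP high, of which 10 cells held 63.2%. It was -0.29 with 2000 or more detected genes, -0.43 with a mitochondrial limit of 10% and -0.53 with doublets kept, each short of the 2-fold rule and in the same direction.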

How the results depend on the processing

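No paired analysis was possible because each group has 1 library. Of the counts of guidance genes called, 55 of 273 alternative values lay more than 1.5 times from the value given, and 218 did not. Counts are written as given first and then under the alternative. For GFP high over GFP low in neuron-like cells, higher went from 6 to 1 with 2000 or more detected genes, 2 with a mitochondrial limit of 10%, 2 with doublets kept, 3 at resolution 2, 1 at a fold of 3, 1 with the Neurod1-led and Hox-led clusters included (an alternative added, like those with the Ocm-led cluster and without the Postn-led cluster, after seeing the data) and 0 without the 10 cells with most UMIs; lower went from 3 to 1, 0, 0, 1, 1, 1 and 16 in the same order, and to 5 with no minimum. Leaving out the 10 cells takes 10 of 104 cells in GFP high but 10 of 828 in GFP low, so by construction it tends to lower the ratios. In hair-cell-like cells higher went from 4 to 8 at resolution 0.5, 7 with no minimum, 2 at 20 CPM and 2 at a fold of 3, and lower from 4 to 1 with the 10% limit, 2 at resolution 2, 12 with no minimum and 1 at a fold of 3. In supporting-cell-like cells higher went from 0 to 1 with 2000 or more genes, the 10% limit, doublets kept, 4000 variable genes or no minimum, and lower from 0 to 2 with no minimum. Over all cells higher went from 4 to 2 at a fold of 3, and lower from 11 to 24 with no minimum, 7 at 20 CPM and 7 at a fold of 3. For day 20 over day 16 in all cells higher went from 3 to 1 at 20 CPM and 1 at a fold of 3, and lower from 10 to 6 with TMM and 3 at a fold of 3. In mesenchyme-like cells higher went from 2 to 1 with the mean of per-cell CPM, 1 at 20 CPM and 0 at a fold of 3, and lower from 9 to 5 with TMM, 5 at 20 CPM, 22 with no minimum and 4 at a fold of 3. In neuron-like cells higher went from 0 to 1 with the mean of per-cell CPM and 4 with no minimum, and lower from 5 to 8 with no minimum and 1 at a fold of 3. Lower in neuron-like than in hair-cell-like cells of GFP low went from 9 to 4 at a fold of 3. For hair-cell-like over supporting-cell-like cells, higher went from 9 to 14 and lower from 16 to 31 with no minimum. Genes higher in at least 1 neuron-like cluster of GFP low went from 17 to 50 at resolution 2, 11 at 20 CPM, 11 at a fold of 3 and 5 with gates. Other than by the fold, the minimum and the number of cells, the cause was not tested. Resolution 0.5 gave a cartilage-like class and no supporting-cell-like class, so comparisons with supporting-cell-like cells were not run there. Of 72 values of single named genes, 42 kept their side of the rule under all alternatives run, and none of the others changed sign. TMM factors moved ratios by 0.119 on the log2 scale for GFP high over GFP low in all cells. They moved them by 0.186 and 0.31 for day 20 over day 16 in all and in mesenchyme-like cells. For mesenchyme-like over neuron-like cells the move was 0.145. Depth limits low genes: 3 UMIs are the floor, and classes of 99 to 139 cells, such as hair-cell-like cells before day 21, give wide intervals.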

Other observations

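Guidance genes also set apart clusters that belong to none of the 4 classes. The unnamed cluster led by Cnmd and Oc90, whose raised markers tie between supporting cells, otic epithelium and cartilage, had 396 CPM of Epha7 in GFP high (222 cells) and 328 in GFP low (370 cells), and 41.2 and 40.8 CPM of Sema3b. Within it 0 of 35 measured guidance genes were called higher and 0 lower between the gates, where 0.481% and 0.569% of all genes were. Sema3e was 108 CPM at day 16 and 104 at day 20 in the larger Merkel-cell-like cluster, mechanosensory cells of the skin that also depend on Atoh1. The Car3-led cluster of day 20 held 683 CPM of Nrp2. Plxna2 reached 187 CPM in the cluster led by Hoxb8 in GFP low, and Epha2 42.5 CPM in the pluripotent-like cluster there.

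Efna5 in the Ocm-led hair cell marker cluster was 115 CPM at day 16 (55 cells), 98.3 in GFP high and 16.5 in GFP low. Epha4 there was 84.7, 56 and 10.4 CPM. Both genes were thus lower in GFP low than at day 16 and in GFP high, and Egfp was 5832, 3887 and 952 CPM in the same cells. Whether Egfp and these genes are linked was not tested.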
